A study of Homo sapiens with 12 samples.

Results

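IGROV1 and SKOV3 are human epithelial ovarian cancer cell lines that are grown as cultures. Their transcript levels were compared over 6 of the 12 arrays of a series of untreated parental ovarian cancer lines, 3 titled IGROV1 and 3 titled SKOV3. Members were chosen by those titles. The arrays were of the Affymetrix U133 Plus 2.0 type, which reads each transcript with short probes grouped into probe sets. Per the labels' protocols, IGROV1 was cultured in RPMI and SKOV3 in DMEM, both with fetal calf serum, and neither was treated, so line and medium cannot be told apart. The other 6 arrays, 3 each of TOV112D and TOV21G, took no part in the differences themselves but helped to estimate the spread between arrays and to choose the probe set of each gene, the one with the highest mean. Nothing in the labels ties the 3 arrays of a line to separate cultures, and p-values therefore reflect only array-to-array spread, which could be technical.

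Ovarian carcinomas keep many features of epithelium. Epithelial cells are joined by cadherin junctions and tight junctions and are built on keratins. When such cells take on a mesenchymal form, transcription factors of the ZEB, SNAI and TWIST families repress junction genes, and matrix genes are made instead. Early embryonic and germ cells use other regulators, among them the RNA-binding proteins LIN28A and LIN28B, which block the maturation of let-7 microRNAs and are off in most adult tissue. Glucose and fatty acids enter cells and move within them through families of carriers whose members are used by different tissues.

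Expression is given in log2 units from robust multi-array averaging (RMA), in which a difference of 1 is 2-fold. Many of the lowest genes read about 2 to 3, called the floor here. No detection calls were used, so a value above the floor does not by itself show that a transcript is present. The median of all values was 4.44. Arrays of IGROV1 correlated with each other at 0.9974 to 0.9976 over 19775 genes and the SKOV3-labelled arrays at 0.9972 to 0.9974, against 0.897 to 0.899 between the lines. The 3' minus 5' signal of the GAPDH control was 0.10 to 0.15 in IGROV1 and 0.11 to 0.14 in the SKOV3-labelled arrays, and that of ACTB was 0.54 to 0.60 and 0.45 to 0.49. A difference is given with its standard error (SE), and a mean with the standard deviation (SD) of 3 arrays.

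The label SKOV3 was checked first. The line SKOV3 is known for amplification and strong expression of ERBB2, the HER2 receptor. ERBB2 read 8.96, 9.05 and 9.02 in the IGROV1 arrays and 8.08, 8.10 and 8.24 in the SKOV3-labelled arrays. All 3 SKOV3-labelled arrays lay below all 3 IGROV1 arrays, and ERBB2 was higher in IGROV1 by 0.87 ± 0.07 (limma, adjusted p = 2.2e-07), less than the 2-fold minimum used for calls. Among 19 measured genes of the ERBB2 neighbourhood on chromosome 17, which are co-amplified with it in many tumours, 2 were called higher in IGROV1 and 0 in the SKOV3-labelled arrays. These counts are near the shares of all genes called, 10.2% and 8.63%. GRB7, an adaptor protein that binds HER2, was higher in IGROV1 by 2.14 ± 0.15, with 6.58 ± 0.09 against 4.44 ± 0.27. MIEN1, next to ERBB2, was higher in IGROV1 by 1.03 ± 0.08, a call that was lost under quantile normalization (0.96) and without IGROV1 replicate 3 (0.99). STARD3, PGAP3 and ORMDL3 of the same neighbourhood differed by 0.00, 0.13 and 0.10. The ERBB2 level therefore goes against the label, and these arrays are named by their label throughout.

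Of the 19775 genes, 3714 were called different (18.8%), at an adjusted p under 0.05 (limma, Benjamini-Hochberg) and a difference of at least 1. They split into 2008 genes higher in IGROV1 (10.2%) and 1706 higher in the SKOV3-labelled arrays (8.63%). The median difference over all genes was 0.01 and the median SE was 0.094. In all 3714 called genes the 3 values of one line did not overlap the 3 of the other. With a minimum of 1 and median SDs of 0.089 in IGROV1 and 0.096 in the SKOV3-labelled arrays, this was nearly fixed in advance. It adds no support to the calls, and the share over all genes was not counted. A difference of 3 or more, which is 8-fold, was measured for 410 genes higher in IGROV1 and 439 higher in the SKOV3-labelled arrays. For 122 genes the SKOV3-labelled mean lay under 4.44 while the IGROV1 mean was 8 or more, and for 134 genes the reverse was found.

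**Figure D1:**
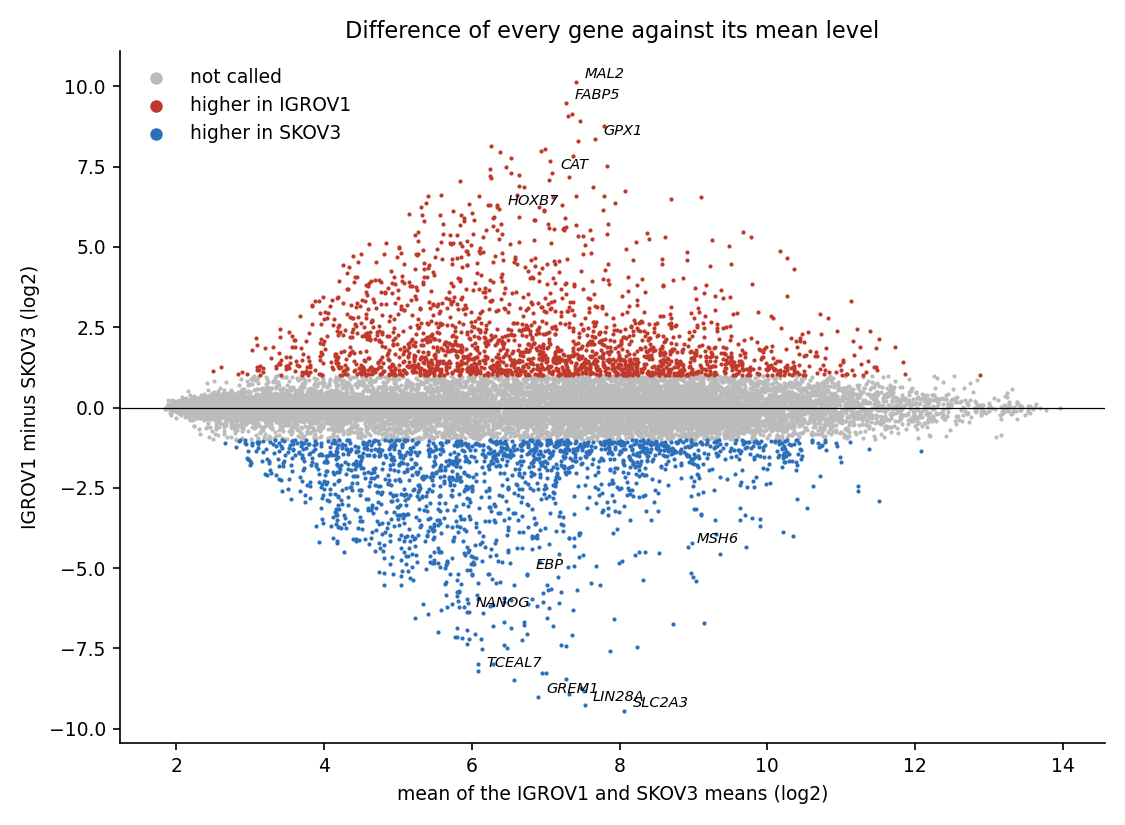
Each point is one gene, with the mean of both line means on the x axis and IGROV1 minus SKOV3 on the y axis, both on the log2 scale; red and blue points are the 2008 and 1706 called genes and grey points were not called. The called genes reach 10.13 above zero (MAL2) and 9.46 below it (SLC2A3).

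The genes at the ends of that range had values near the floor in one line. MAL2 encodes a membrane protein that carries cargo to the apical face of epithelial cells. It read 12.52, 12.47 and 12.45 in the IGROV1 arrays and 2.73, 2.12 and 2.20 in the SKOV3-labelled arrays. The IGROV1 values lay close together and far above every SKOV3-labelled value, a difference of 10.13 ± 0.13 (limma, adjusted p = 2.2e-14). FABP5, a cytoplasmic fatty acid binding protein, read 12.02, 11.97 and 12.05 in the IGROV1 arrays and 2.80, 2.52 and 2.26 in the SKOV3-labelled arrays. Again the lines did not overlap, and FABP5 was higher in IGROV1 by 9.49 ± 0.10 (limma, adjusted p = 8.6e-15).

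The direction was the opposite for the other pair. SLC2A3 encodes GLUT3, a glucose transporter known for its high affinity and its use in neurons and early embryos. It read 3.45, 3.29 and 3.27 in the IGROV1 arrays and 12.75, 12.82 and 12.81 in the SKOV3-labelled arrays. All SKOV3-labelled arrays were high and all IGROV1 arrays were below the median of all values, a difference of 9.46 ± 0.07 (limma, adjusted p = 5.9e-16). Its 3 probe sets differed by 7.11 to 9.46 in the same direction. LIN28A read 2.73, 2.83 and 3.12 in the IGROV1 arrays and 12.07, 12.03 and 12.37 in the SKOV3-labelled arrays, with no overlap and a difference of 9.27 ± 0.13 (limma, adjusted p = 5.4e-14). MAL2, FABP5 and LIN28A each rest on 1 probe set.

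**Figure D2:**
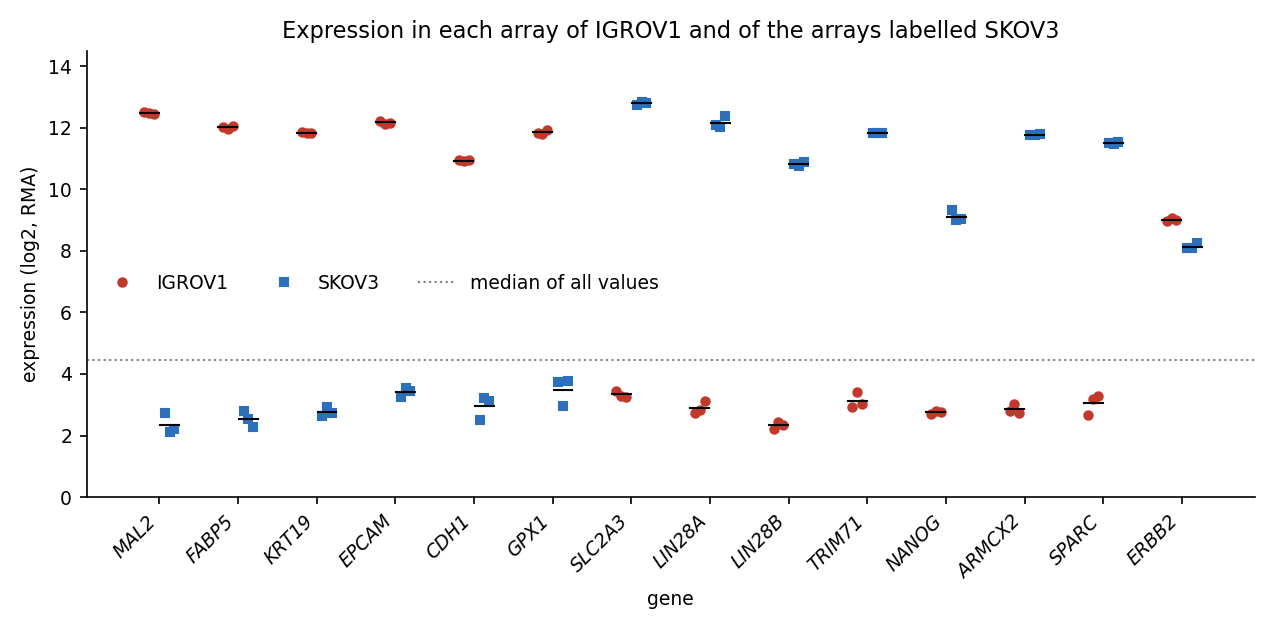
Expression on the log2 scale in each of the 3 IGROV1 arrays (red circles) and the 3 SKOV3-labelled arrays (blue squares) for 14 genes, with a black line at each mean and the median of all values, 4.44, dotted. For 13 of the genes the mean of one line lies under 4.44 and that of the other is at 9 or above. ERBB2 is high in both lines and higher in IGROV1.

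The 32 gene lists were chosen with earlier results of these data known, so shares above those of all genes could reflect that choice. Over the lists, 366 of 748 measured members were called, against 18.8% of all genes. Epithelial genes were higher in IGROV1. Of 20 measured epithelial regulators, which are transcription factors, protease inhibitors and carriers of polarised cells, 15 were called higher in IGROV1 and 1 lower, with a median difference of 3.11. That list includes MAL2, given above. Of 23 junction genes 13 were called higher in IGROV1 and 1 lower, with a median of 1.06. These counts stand beside 10.2% of all genes called higher in IGROV1 and 8.63% called lower. The members lower in IGROV1 were the protease PRSS8 by 1.01, not called without IGROV1 replicate 1 (0.99), IGROV1 replicate 2 (0.88) or SKOV3 replicate 3 (0.90), and the desmosomal cadherin DSC2 by 1.19, not called with probe sets averaged (0.47). EPCAM, the epithelial adhesion molecule used to capture carcinoma cells, read 12.23, 12.12 and 12.16 in the IGROV1 arrays and 3.24, 3.54 and 3.44 in the SKOV3-labelled arrays. CDH1, which encodes E-cadherin of adherens junctions, read 10.94, 10.92 and 10.94 in the IGROV1 arrays and 2.52, 3.21 and 3.13 in the SKOV3-labelled arrays. Both genes were clearly present in every IGROV1 array and below the median of all values in every SKOV3-labelled array, with differences of 8.76 ± 0.09 and 7.98 ± 0.28 (limma, adjusted p = 5.5e-15 and 1.2e-10).

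Tight junction strand proteins went the same way for CLDN1, which read 11.63, 11.57 and 11.57 in the IGROV1 arrays and 3.99, 4.27 and 3.95 in the SKOV3-labelled arrays, and for CLDN3, higher in IGROV1 by 5.25 ± 0.17. CLDN4 did not pass, with a difference of 0.45. Among the cytoplasmic and membrane proteins that organise these contacts, MARVELD2 (tricellulin) was higher in IGROV1 by 5.05 ± 0.14, PATJ of the polarity complex by 4.73 ± 0.15 and the desmosomal plakophilin PKP3 by 3.84 ± 0.11. DSP and JUP, the desmosomal plaque proteins, were only just past the minimum, at 1.05 and 1.06, and under quantile normalization fell short of it (0.99 and 0.96), as DSP did without IGROV1 replicate 2 (0.99). The tight junction scaffold TJP1 and occludin (OCLN) differed by less than 2-fold, -0.40 and 0.80 as IGROV1 minus SKOV3. OCLN passed the minimum, at 1.15, when its probe sets were averaged.

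The transcription factors of epithelium were unequal. EHF and ELF3 of the ETS family were higher in IGROV1 by 5.39 ± 0.19 and 3.71 ± 0.22, and KLF5 by 4.47 ± 0.15. GRHL1 was higher by 2.90 ± 0.14 and OVOL2 by 2.32 ± 0.12, and with probe sets averaged the values were 1.82 for GRHL1 and 1.16 for OVOL2. GRHL2, usually the main grainyhead factor of epithelia, was at the floor in both lines, at 2.48 ± 0.13 and 2.55 ± 0.06 (SD, n = 3). The splicing regulator ESRP1 was also low in both, at 3.10 and 2.97, and RAB25 differed by 0.05. MYO5B, a motor for recycling endosomes, was higher in IGROV1 by 5.45 ± 0.11, and the protease inhibitors SPINT1 and SPINT2 by 4.70 ± 0.09 and 3.81 ± 0.08.

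Keratins split. KRT19 read 11.87, 11.82 and 11.84 in the IGROV1 arrays and 2.63, 2.92 and 2.73 in the SKOV3-labelled arrays, and KRT7 read 10.07, 10.01 and 10.03 in the IGROV1 arrays and 4.46, 3.52 and 3.76 in the SKOV3-labelled arrays. Each was high in every IGROV1 array and near or under the median of all values in the others, with differences of 9.08 ± 0.14 and 6.13 ± 0.19. KRT80 was higher in IGROV1 by 6.63 ± 0.23. KRT8 and KRT18, the keratin pair of simple epithelium, were strongly present in both lines, and KRT8 was higher in the SKOV3-labelled arrays by 1.53 ± 0.09, at 10.21 ± 0.08 against 11.75 ± 0.05 (SD, n = 3). KRT18 leaned the same way by 0.84 without reaching the minimum. Both are read by 1 probe set each, of a kind that can cross-hybridise. When all probe sets of a gene were averaged, the differences shrank to 4.76 for KRT19, 1.61 for KRT7, 4.92 for CDH1, 3.40 for MYO5B, 2.40 for SPINT1 and 1.60 for PATJ and stayed called.

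Mesenchymal factors were higher in the SKOV3-labelled arrays. Of 20 measured, 11 were called higher there and 0 in IGROV1, with a median IGROV1 minus SKOV3 difference of -1.11, beside 8.63% and 10.2% of all genes called in those directions. ZEB2, a repressor of CDH1, read 2.20, 1.97 and 1.99 in the IGROV1 arrays and 7.42, 7.68 and 7.64 in the SKOV3-labelled arrays. TWIST1 read 3.19, 2.63 and 1.72 in the IGROV1 arrays and 7.92, 7.86 and 7.67 in the SKOV3-labelled arrays. Neither gene overlapped between the lines, although TWIST1 was more spread in IGROV1 than most genes (SD 0.74). ZEB2 differed by 5.52 ± 0.17 and TWIST1 by 5.30 ± 0.26 (limma, adjusted p = 3.8e-11 and 3e-09). TCF4, a partner of TWIST factors, differed by 6.67 ± 0.21 and SNAI2 by 3.26 ± 0.08.

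The cadherin CDH2 (N-cadherin), which often replaces E-cadherin in mesenchymal cells, was higher in the SKOV3-labelled arrays by 4.22 ± 0.18, but IGROV1 also carried it at 6.87 ± 0.13 (SD, n = 3). ZEB1 was present in both lines, at 7.80 and 8.87, and differed by 1.07, or by 0.57 and not called with probe sets averaged. Vimentin (VIM), the intermediate filament of mesenchymal cells, was also high in both, at 12.62 ± 0.03 and 13.55 ± 0.03. It did not reach the minimum on the probe set used. The mean of its probe sets did, higher in the SKOV3-labelled arrays by 1.94. The matrix protein TGFBI differed by 6.56 ± 0.16. Averaged over its 5 probe sets, ZEB2 differed by 2.65.

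Genes of the fibrillar matrix had the lowest median of the 32 gene lists. Of 25 measured, 16 were called higher in the SKOV3-labelled arrays and 1 in IGROV1, beside 8.63% and 10.2% of all genes. The median IGROV1 minus SKOV3 difference was -2.38. SPARC, a secreted collagen-binding glycoprotein, read 2.65, 3.18 and 3.29 in the IGROV1 arrays and 11.50, 11.46 and 11.54 in the SKOV3-labelled arrays. CCN2, the connective tissue growth factor, read 2.92, 3.28 and 2.21 in the IGROV1 arrays and 11.20, 11.06 and 10.99 in the SKOV3-labelled arrays. In both genes the SKOV3-labelled arrays were high and close together, and differences were 8.46 ± 0.19 and 8.28 ± 0.20 (limma, adjusted p = 1.7e-12 and 3.5e-12). CCN1, a close relative of CCN2, was high in both lines and differed by only 0.61.

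Among the collagens, those that start or regulate fibrils differed most: COL11A1 by 7.51 ± 0.08, COL5A2 by 7.09 ± 0.10 and COL5A1 by 5.77 ± 0.09. COL1A1, the main chain of type I collagen, differed by 5.29 ± 0.08 and its partner COL1A2 by 1.89 ± 0.13. COL3A1, LUM and DCN, which fibroblasts make in abundance, were near the floor in both lines (2.75 and 2.77 for COL3A1). Periostin (POSTN) was higher in the SKOV3-labelled arrays by 7.04 ± 0.14 and the fibrillin FBN2 by 6.18 ± 0.16. The paralog FBN1 was the 1 exception, higher in IGROV1 by 2.55 ± 0.07. Averages over all probe sets gave 3.07 for POSTN, 2.59 for FBN2 and 3.18 for COL1A1.

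Basement membrane and integrin genes were called in both directions, 11 higher in IGROV1 and 7 lower among 26, beside 10.2% and 8.63% of all genes. The nidogens, which link laminin to collagen IV, were opposed: NID2 was higher in IGROV1 by 5.22 ± 0.11, and NID1 was higher in the SKOV3-labelled arrays by 6.99 ± 0.12. LAMB3, a laminin chain of epithelial anchorage, and ITGB4, the integrin chain of hemidesmosomes, were higher in IGROV1 by 4.46 ± 0.18 and 3.58 ± 0.17. LAMA1, the laminin chain of the early embryo, was higher in the SKOV3-labelled arrays by 4.14 ± 0.15, and ITGA1, a collagen receptor, by 3.08 ± 0.10. ITGB1, shared by most integrins, read 12.22 and 12.27. With probe sets averaged, the values were 3.13 for NID1, 1.27 for ITGB4, 2.08 for LAMA1 and 1.5 for ITGA1.

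**Figure D3:**
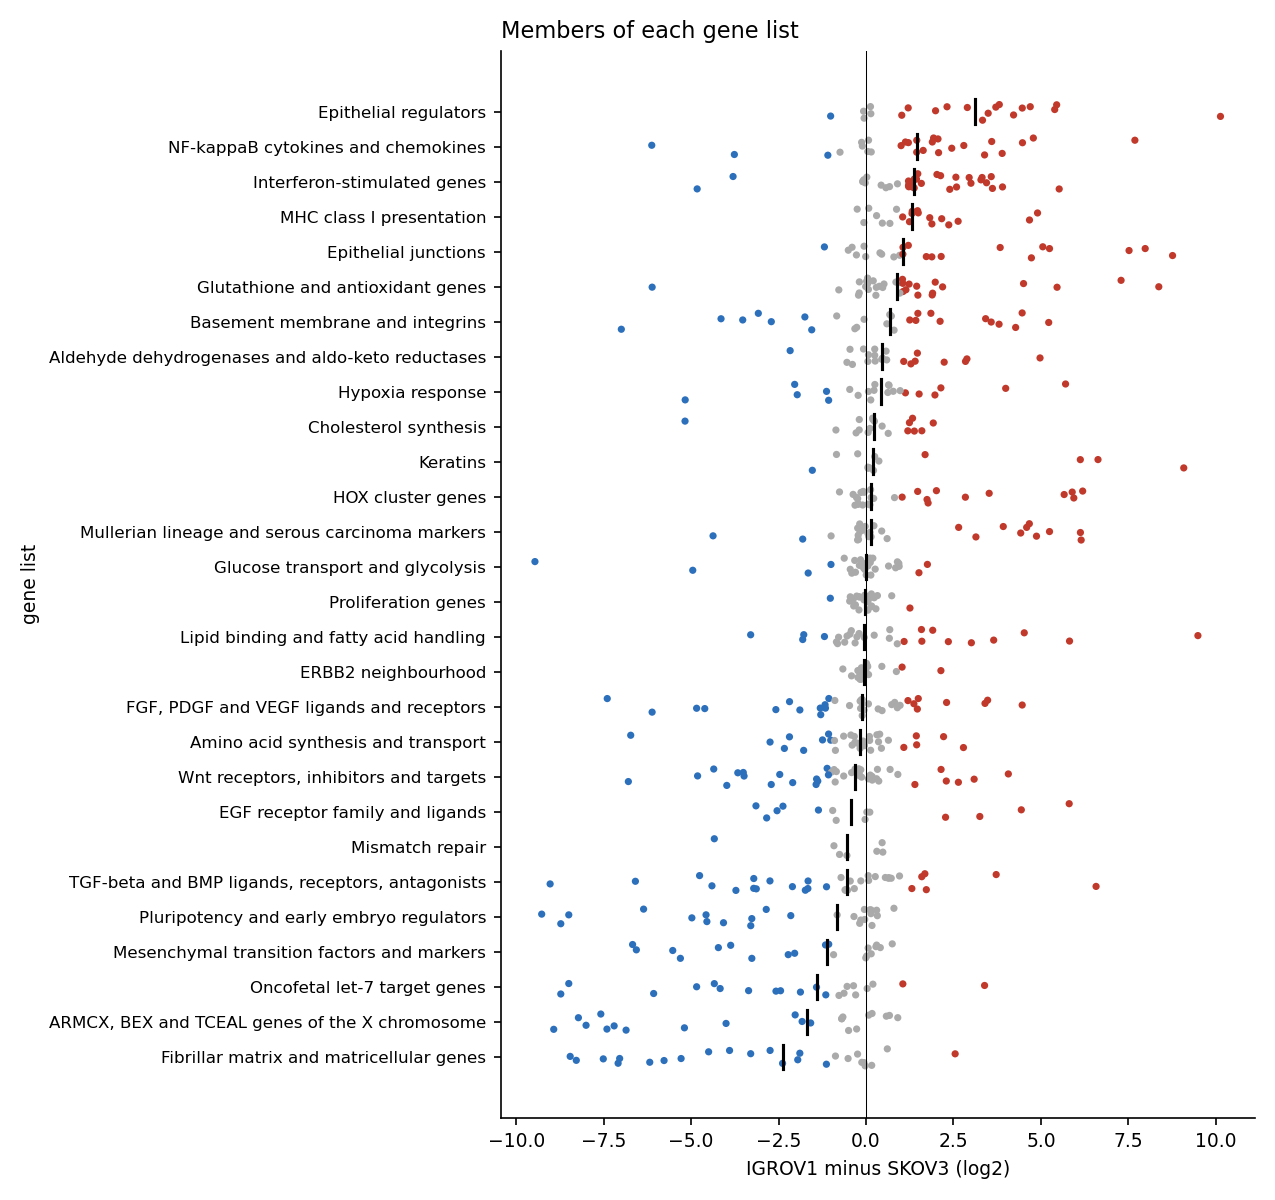
Each point is a measured member of one of 28 gene lists, placed by IGROV1 minus SKOV3 on the log2 scale; red and blue mark calls higher in IGROV1 and in the SKOV3-labelled arrays, grey was not called, and black lines are list medians. Medians run from 3.11 for epithelial regulators to -2.38 for fibrillar matrix genes.

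Regulators of pluripotency and the early embryo were the next group. Of 25 measured, 12 were called higher in the SKOV3-labelled arrays and 0 in IGROV1, beside 8.63% and 10.2% of all genes. LIN28A, given above, is counted among them. LIN28B, the paralog of LIN28A, read 2.22, 2.43 and 2.33 in the IGROV1 arrays and 10.83, 10.76 and 10.88 in the SKOV3-labelled arrays. TRIM71, a LIN28-linked ubiquitin ligase and RNA-binding protein that is itself a let-7 target, read 2.92, 3.40 and 3.01 in the IGROV1 arrays and 11.84, 11.84 and 11.82 in the SKOV3-labelled arrays. NANOG, a homeodomain factor of embryonic stem cells, read 2.70, 2.81 and 2.76 in the IGROV1 arrays and 9.32, 8.99 and 9.03 in the SKOV3-labelled arrays. In each of the 3 genes all IGROV1 arrays lay under the median of all values and all SKOV3-labelled arrays above it, with differences of 8.5 ± 0.08, 8.72 ± 0.15 and 6.36 ± 0.11 (limma, adjusted p = 4e-15, 2.4e-13 and 1.6e-13).

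Other members of that network went with them. SOX2 was higher in the SKOV3-labelled arrays by 4.98 ± 0.08 on the probe set used, and its 4 probe sets ranged from 0.29 to 9.55 in the same direction. SALL4 differed by 4.55 ± 0.11, PRDM14 by 4.07 ± 0.15 and ZIC2 by 4.57 ± 0.07. The de novo methyltransferase DNMT3A differed by 3.29 ± 0.12 (averaged probe sets gave 1.98 for DNMT3A), while DNMT3B differed by only 0.82. Several stem cell markers were low in both lines and did not pass: L1TD1 read 4.25 and 4.10, ZFP42 read 2.54 and 2.37, GDF3 read 4.28 and 4.63, and DPPA4 read 3.60 and 3.28. DPPA4 was read by a probe set that can cross-hybridise, and without it the IGROV1 minus SKOV3 difference was -1.49 and called. UTF1, NODAL and LEFTY1 differed by 0.05, 0.04 and 0.30. NANOG differed by 3.86 with both probe sets averaged.

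LIN28 proteins act on let-7, and mature let-7 pairs with its targets through a short seed. The mature members below are shown because the gene list that follows was put together as one of let-7 targets. Capitals mark the seed, bases 2 to 8, and the sequences are those of RefSeq (GRCh38.p14).
let-7a-5p: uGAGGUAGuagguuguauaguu
let-7d-5p: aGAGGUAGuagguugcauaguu
let-7g-5p: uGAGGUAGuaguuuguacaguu
let-7i-5p: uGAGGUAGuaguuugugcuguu
miR-98-5p: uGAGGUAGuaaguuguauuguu
The seed is the same in all 5, and they differ outside it. Mature microRNAs are not read by these arrays, so no let-7 level was measured. Sites in the listed genes were not searched, so it was not checked that each member is a let-7 target.

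Of 21 measured genes listed as oncofetal let-7 targets, 12 were called higher in the SKOV3-labelled arrays and 2 in IGROV1, beside 8.63% and 10.2% of all genes. The median IGROV1 minus SKOV3 difference was -1.41. LIN28B and TRIM71 are in this list too. IGF2BP1, an RNA-binding protein of fetal tissue, read 3.94, 3.84 and 4.0 in the IGROV1 arrays and 9.99, 9.92 and 10.08 in the SKOV3-labelled arrays. It was low in every IGROV1 array, a difference of 6.07 ± 0.10. Its paralogs were high in both lines: IGF2BP2 differed by 0.77, and IGF2BP3 leaned towards IGROV1 by 1.05, a call lost with probe sets averaged (0.84) and without SKOV3 replicate 3 (0.99). The chromatin proteins HMGA1 and HMGA2 were higher in the SKOV3-labelled arrays by 3.36 ± 0.06 and 2.44 ± 0.05, from IGROV1 levels of 8.02 and 10.00. The 9 probe sets of HMGA2 averaged 0.60, under the minimum. PRTG, a receptor of the early neural tube, differed by 4.34 ± 0.13, and alpha-fetoprotein (AFP) by 4.17 ± 0.10. DLK1 differed by 4.84 ± 0.11, or 2.20 with its 2 probe sets averaged. The cytokine IL6 was the larger of the 2 exceptions, higher in IGROV1 by 3.39 ± 0.12. DICER1 and PEG10 differed by 0.63 and 0.20.

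A block of small genes on the X chromosome followed the same direction. ARMCX proteins carry armadillo repeats and several sit on mitochondria, and BEX and TCEAL proteins are short, related to each other and best known from brain. Of 22 measured genes of this block, 12 were called higher in the SKOV3-labelled arrays and 0 in IGROV1, beside 8.63% and 10.2% of all genes, with a median IGROV1 minus SKOV3 difference of -1.70. ARMCX2 read 2.79, 3.01 and 2.74 in the IGROV1 arrays and 11.76, 11.78 and 11.79 in the SKOV3-labelled arrays. TCEAL7 read 1.90, 2.11 and 1.90 in the IGROV1 arrays and 10.18, 10.15 and 10.24 in the SKOV3-labelled arrays. BEX4 read 2.41, 2.29 and 2.17 in the IGROV1 arrays and 10.21, 10.32 and 10.35 in the SKOV3-labelled arrays. The 3 genes were each at the floor in IGROV1 and differed by 8.93 ± 0.10, 8.22 ± 0.08 and 8.0 ± 0.11 (limma, adjusted p = 8.8e-15, 4e-15 and 2.5e-14).

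BEX1, ARMCX6, TCEAL8 and ARMCX3 differed by 7.58 ± 0.12, 7.40 ± 0.17, 7.20 ± 0.09 and 6.86 ± 0.15. The block was not uniform. ARMCX1 and TCEAL2 were low in both lines, at 2.75 and 2.68 and at 2.68 and 3.17. BEX3, TCEAL4, TCEAL9 and MORF4L2 were above 10 in both and differed by under 1. TCEAL3 and TCEAL1 leaned towards IGROV1 by 0.91 and 0.58 without reaching the minimum. In gene order, BEX1, NXF3, BEX4, TCEAL8, BEX2 and TCEAL7 formed an unbroken run of 6 genes called higher in the SKOV3-labelled arrays. Within it NXF3 reached only 4.36 in those arrays and its call was lost with probe sets averaged (0.92). With probe sets averaged ARMCX6 differed by 3.76 and ARMCX4 by 1.13.

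**Figure D4:**
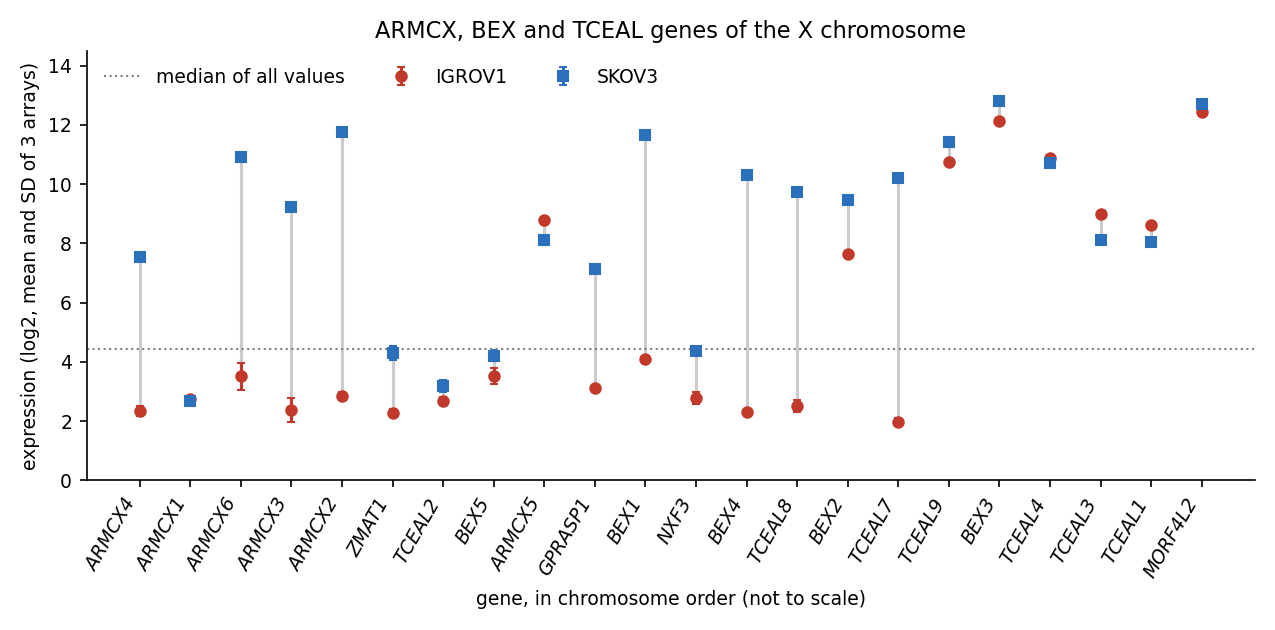
Mean expression on the log2 scale with its SD over 3 arrays in IGROV1 (red circles) and the SKOV3-labelled arrays (blue squares) for 22 X-linked genes, in chromosome order and not to scale, with the median of all values, 4.44, dotted. ARMCX6, ARMCX3, ARMCX2, BEX1, BEX4, TCEAL8 and TCEAL7 are at 9 or above in the SKOV3-labelled arrays and under 4.44 in IGROV1, while BEX3, TCEAL4 and MORF4L2 are above 10 in both.

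These genes also resemble each other before their starts. The letters CACGTG, a palindromic E-box that reads the same on both strands, were searched in the 250 bases before each RefSeq gene start (GRCh38.p14). Of the 22 genes 19 had an entry, and 12 of these held the letters (63.2%), against 7.73% of 27305 genes in the table. The share was 6 of 10 among entries of called genes and 6 of 9 among entries of genes not called, so the letters do not separate the genes that differed from those that did not. Windows of up to 30 bases on each side, from 4 called genes and then from 2 that were not called, are shown with the letters in capitals.
ARMCX2 (minus strand, chrX:101659875-101659940): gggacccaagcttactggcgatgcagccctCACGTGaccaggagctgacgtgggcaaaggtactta
BEX1 (minus strand, chrX:103064183-103064248): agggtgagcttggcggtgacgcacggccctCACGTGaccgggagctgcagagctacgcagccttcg
BEX4 (plus strand, chrX:103215059-103215107): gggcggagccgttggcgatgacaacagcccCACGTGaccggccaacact
TCEAL8 (minus strand, chrX:103255156-103255216): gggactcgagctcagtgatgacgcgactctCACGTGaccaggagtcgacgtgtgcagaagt
BEX3 (plus strand, chrX:103376461-103376526): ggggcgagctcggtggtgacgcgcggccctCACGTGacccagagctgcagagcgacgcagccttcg
TCEAL1 (plus strand, chrX:103628889-103628954): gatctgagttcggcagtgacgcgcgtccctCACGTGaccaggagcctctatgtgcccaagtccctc
The start of the gene lies 54, 41, 13, 25, 41 and 50 bases after the E-box in these 6 windows, in the order shown. A match of letters is a description and shows no binding.

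HOX genes, which set position along the body axis, were called only in 1 direction among those measured. The list held 39 HOX genes. Those not measured are not covered, and no HOXA gene is described here. Of 28 measured, 11 were called higher in IGROV1 and 0 in the SKOV3-labelled arrays, 8 of them from the HOXB cluster and 3 from HOXD, beside 10.2% and 8.63% of all genes. HOXB7 read 9.35, 9.47 and 9.59 in the IGROV1 arrays and 3.36, 3.18 and 3.29 in the SKOV3-labelled arrays. It was high in every IGROV1 array and under the median of all values in the others, a difference of 6.19 ± 0.07 (limma, adjusted p = 1.2e-14). HOXB6, HOXB3 and HOXB8 differed by 5.94 ± 0.19, 5.89 ± 0.08 and 5.66 ± 0.12, or by 3.25 for HOXB6, 3.23 for HOXB3 and 3.32 for HOXB8 with probe sets averaged. HOXB2, HOXB4, HOXB5 and HOXB9 were higher by 3.52, 1.74, 2.01 and 1.77. Both ends of the cluster, HOXB1 and HOXB13, were low in both lines and differed by 0.08 and 0.06. The 9 measured HOXC genes were not called either, with line means between 2.32 and 5.49.

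Lineage genes of the Mullerian tract, from which most ovarian carcinomas are thought to derive, were called higher in IGROV1 for 10 of 28 members and lower for 2, beside 10.2% and 8.63% of all genes. SOX17 read 8.77, 8.82 and 8.84 in the IGROV1 arrays and 2.87, 2.44 and 2.73 in the SKOV3-labelled arrays. PAX8 read 10.18, 10.29 and 10.32 in the IGROV1 arrays and 7.24, 7.03 and 7.09 in the SKOV3-labelled arrays. SOX17 was at the floor in the SKOV3-labelled arrays, whereas PAX8 was present in both lines, and differences were 6.13 ± 0.14 and 3.14 ± 0.09. PAX2, MECOM and mesothelin (MSLN) were higher in IGROV1 by 4.87 ± 0.12, 4.59 ± 0.08 and 3.92 ± 0.12. With probe sets averaged the first 2 fell to 2.88 for PAX2 and 2.76 for MECOM. SLPI, a secreted protease inhibitor, was higher by 6.15 ± 0.21. WT1, a marker of serous carcinoma, leaned the other way by 1.0, just under the minimum. Hormone receptors ESR1 and PGR and the CA125 antigen MUC16 differed by 0.23, 0.06 and 0.14. LYPD1 was the larger of the 2 members higher in the SKOV3-labelled arrays, by 4.37 ± 0.11.

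Carriers of fatty acids were unequal beyond FABP5. In the list of lipid genes 10 of 29 were called higher in IGROV1 and 4 lower, beside 10.2% and 8.63% of all genes, with a median of -0.05. FABP5 itself is counted in that list. ACSL1, which activates fatty acids, read 8.77, 8.79 and 8.85 in the IGROV1 arrays and 3.04, 2.92 and 3.0 in the SKOV3-labelled arrays, with no overlap and a difference of 5.82 ± 0.07. CPT1A, which admits them to mitochondria, was higher in IGROV1 by 4.52 ± 0.13 and the transporter SLC27A2 by 3.65 ± 0.17. FABP3 and FABP6 were higher by 1.91 ± 0.15 and 3.01 ± 0.14, while FABP4 and FABP7 were near the floor in both lines. Genes that make fatty acids were close: FASN differed by 0.78 and ACACA by 0.31, and SCD was higher in the SKOV3-labelled arrays by 1.19. The lipid droplet coat gene PLIN2 was higher there by 3.30 ± 0.14. Averaged over probe sets, the differences were 2.89 for CPT1A, 1.10 for FABP6 and 1.79 for PLIN2.

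Of 29 genes of glucose transport and glycolysis 2 were called higher in IGROV1 and 4 lower, with a median of 0.01, and all 4 lower genes were SLC2A transporters. Both counts are few and near the shares of all genes, 10.2% and 8.63%. SLC2A10 read 2.75, 2.69 and 2.69 in the IGROV1 arrays and 7.58, 7.69 and 7.71 in the SKOV3-labelled arrays and differed by 4.95 ± 0.08. SLC2A1, which encodes the widespread transporter GLUT1, was higher in the SKOV3-labelled arrays by 1.0, at the minimum, and its call was lost with probe sets averaged (0.91) and without IGROV1 replicate 3 (0.96) or SKOV3 replicate 3 (0.88). Hexokinases HK1 and HK2 differed by -0.16 and 0.64, and PKM by -0.30, as IGROV1 minus SKOV3. The averaged probe sets of HK2 gave -0.985 on that scale, just under the minimum in size. GPI and ALDOC were the 2 called higher in IGROV1, by 1.75 ± 0.06 and 1.51 ± 0.10. The hypoxia list was called in both directions, 6 higher in IGROV1 and 5 lower of 22, with ADM higher in the SKOV3-labelled arrays by 5.17 ± 0.08 and CA12 higher in IGROV1 by 5.70 ± 0.13; VEGFA differed by 0.07.

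In amino acid metabolism 5 of 33 genes were called higher in IGROV1 and 8 lower, beside 10.2% and 8.63% of all genes. BCAT1, the cytoplasmic branched-chain aminotransferase, read 5.21, 6.03 and 6.08 in the IGROV1 arrays and 12.48, 12.50 and 12.53 in the SKOV3-labelled arrays. Its IGROV1 values were spread (SD 0.49) but stayed far below the SKOV3-labelled ones, a difference of 6.73 ± 0.18. PHGDH, the first enzyme of serine synthesis, and the glutamate transporter SLC1A3 were higher in the SKOV3-labelled arrays by 2.33 ± 0.07 and 2.74 ± 0.09, the latter falling to 1.61 for SLC1A3 with probe sets averaged. ASS1, which makes argininosuccinate, was higher in IGROV1 by 2.79 ± 0.10. In cholesterol synthesis 6 of 18 genes were called higher in IGROV1, by 1.20 to 1.92. EBP, the sterol isomerase, was the 1 called lower, by 5.17 ± 0.14, and its 4 probe sets ranged from 0.47 to 5.17 in that direction and averaged 2.77.

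Antioxidant genes were mostly equal or higher in IGROV1, with 15 of 34 called higher and 1 lower, beside 10.2% and 8.63% of all genes, and a median of 0.90. GPX1, the cytoplasmic glutathione peroxidase, read 11.82, 11.79 and 11.92 in the IGROV1 arrays and 3.72, 2.95 and 3.76 in the SKOV3-labelled arrays. Catalase (CAT) read 10.71, 10.76 and 10.71 in the IGROV1 arrays and 3.56, 3.45 and 3.30 in the SKOV3-labelled arrays. Both peroxide-degrading enzymes were under the median of all values in every SKOV3-labelled array, with differences of 8.37 ± 0.17 and 7.29 ± 0.07 (limma, adjusted p = 7.9e-13 and 4e-15). GPX3, the secreted peroxidase, was opposite, higher in the SKOV3-labelled arrays by 6.11 ± 0.14. GPX4, SOD1, PRDX1, TXN and GSTP1 were high in both lines and differed by at most 0.38. The transferases GSTM3 and GSTT1 were higher in IGROV1 by 5.46 ± 0.07 and 4.50 ± 0.13. Of the NRF2-driven genes, GCLM and HMOX1 were just past the minimum at 1.06 and 1.04 (HMOX1 was 0.94 under quantile normalization and 0.96 without SKOV3 replicate 2), and NQO1 and GCLC did not reach it. Averaging over probe sets gave 4.26 for CAT and 3.52 for GSTM3. ALDH1A1, a retinal dehydrogenase used as a stem cell marker in this cancer, was higher in IGROV1 by 4.97 ± 0.08, and 8 of 22 genes of its list were called higher there and 1 lower. AKR1C1 and AKR1C2 of that list, at 1.47 and 1.41, rest on probe sets that can cross-hybridise, and without these they differed by -0.05 for AKR1C1 and 0.17 for AKR1C2.

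Genes of antigen presentation and of the interferon response were higher in IGROV1. Of 20 genes of MHC class I presentation 13 were called higher in IGROV1 and 0 lower, beside 10.2% and 8.63% of all genes, with a median of 1.32. PSMB9, a subunit of the immunoproteasome, and the trimming enzyme ERAP2 were near the floor in the SKOV3-labelled arrays and higher in IGROV1 by 4.67 ± 0.13 and 4.90 ± 0.14. B2M, the light chain of class I molecules, was high in both lines and differed by 1.88 ± 0.06, and the peptide transporter gene TAP1 differed by 2.63 ± 0.08. HLA class I heavy chains share sequence and were read by probe sets that can cross-hybridise, so HLA-B (2.16) and HLA-C (2.37) are uncertain as single genes. PSMB8, also of the immunoproteasome, was low in both lines at 3.52 and 3.22.

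Of 36 interferon-stimulated genes 25 were called higher in IGROV1 and 2 lower, beside 10.2% and 8.63% of all genes, with a median of 1.38. IFIH1, the RNA sensor MDA5, read 6.38, 6.29 and 6.39 in the IGROV1 arrays and 2.32, 2.60 and 2.43 in the SKOV3-labelled arrays. ISG15, a ubiquitin-like modifier, read 11.05, 11.05 and 11.07 in the IGROV1 arrays and 8.20, 7.98 and 8.16 in the SKOV3-labelled arrays. The lines did not overlap in either gene, and differences were 3.90 ± 0.10 and 2.95 ± 0.08, or 2.04 for IFIH1 with probe sets averaged. IFIT2, IFIT3 and IFITM1 were higher in IGROV1 by 3.44 ± 0.10, 3.0 ± 0.10 and 3.58 ± 0.08, whereas MX2, OAS2, IFI44L and XAF1 were low in both lines. The enzymes that join ISG15 to its targets were the 2 exceptions: HERC5 read 3.31, 3.22 and 3.21 in the IGROV1 arrays and 8.11, 8.06 and 8.06 in the SKOV3-labelled arrays and UBE2L6 read 3.65, 3.19 and 3.92 in the IGROV1 arrays and 7.36, 7.26 and 7.53 in the SKOV3-labelled arrays. Both were higher in every SKOV3-labelled array, by 4.83 ± 0.07 and 3.8 ± 0.17.

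Cytokines and chemokines under NF-kappaB were called higher in IGROV1 for 18 of 27 genes and lower for 3, beside 10.2% and 8.63% of all genes, with a median of 1.45. IL18 read 10.97, 10.85 and 10.87 in the IGROV1 arrays and 2.98, 3.46 and 3.19 in the SKOV3-labelled arrays, a difference of 7.69 ± 0.19. CXCL1 and the NF-kappaB inhibitor genes TNFAIP3 and NFKBIA were higher in IGROV1 by 3.89 ± 0.12, 1.93 ± 0.10 and 1.63 ± 0.09, the last falling to 0.81 and not called with probe sets averaged. CXCL5 and CXCL6, neutrophil chemokines like CXCL1, were higher in the SKOV3-labelled arrays by 6.12 ± 0.16 and 3.76 ± 0.16, and averaged probe sets gave 3.69 for CXCL5. CXCL2 differed by 4.78 on a probe set that can cross-hybridise, and by 0.19 with the other probe set.

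Growth factor receptors and ligands were called in both directions. In the EGF family 4 of 14 genes were called higher in IGROV1 and 5 lower, beside 10.2% and 8.63% of all genes. ERBB4 read 8.12, 8.39 and 8.25 in the IGROV1 arrays and 2.59, 2.29 and 2.45 in the SKOV3-labelled arrays, higher in IGROV1 by 5.81 ± 0.11, and its ligand gene BTC was higher by 4.44 ± 0.14. EGFR was higher in IGROV1 by 2.27 ± 0.11, but its 9 probe sets averaged 0.83, under the minimum. The ligand genes EGF and HBEGF were higher in the SKOV3-labelled arrays by 3.15 ± 0.15 and 2.37 ± 0.10. ERBB3 did not pass, leaning to the SKOV3-labelled arrays by 0.95. In the list of FGF, PDGF, VEGF and insulin-like receptors 8 of 36 were called higher in IGROV1 and 12 lower. FGF13 read 2.76, 2.65 and 2.81 in the IGROV1 arrays and 10.06, 10.16 and 10.20 in the SKOV3-labelled arrays, a difference of 7.40 ± 0.16, and IGF1R read 3.72, 3.58 and 3.82 in the IGROV1 arrays and 9.83, 9.93 and 9.71 in the SKOV3-labelled arrays, a difference of 6.11 ± 0.14. FGF2 was higher in the SKOV3-labelled arrays by 4.84 ± 0.18. MET, the receptor of hepatocyte growth factor, and FGF18 were higher in IGROV1 by 3.48 ± 0.14 and 4.46 ± 0.06. FGFR1, FGFR2 and FGFR3 differed by under 1. Averaged over probe sets, the differences shrank to 2.74 for ERBB4, 2.96 for BTC, 1.06 for HBEGF and 3.66 for IGF1R.

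Of 36 genes of TGF-beta and BMP signalling 6 were called higher in IGROV1 and 14 lower, beside 10.2% and 8.63% of all genes, and the secreted antagonists were unequal. GREM1, which binds BMPs outside the cell, read 2.14, 2.42 and 2.58 in the IGROV1 arrays and 11.35, 11.43 and 11.44 in the SKOV3-labelled arrays, a difference of 9.03 ± 0.11 (limma, adjusted p = 1.8e-14), and both its probe sets gave at least 9.03. Follistatin (FST) and noggin (NOG) differed by 6.59 ± 0.14 and 4.76 ± 0.17 in the same direction, whereas chordin (CHRD) leaned to IGROV1 by 0.65 and did not pass. The ligand gene BMP4 was higher in the SKOV3-labelled arrays by 4.40 ± 0.11, as were the BMP target genes ID2 and SMAD7 by 3.14 ± 0.12 and 2.75 ± 0.08. ID1 was high in both lines and differed by 0.60. INHBB, a subunit of activin, was the largest in the other direction, higher in IGROV1 by 6.58 ± 0.23, followed by the receptor gene TGFBR2 at 3.72 ± 0.08.

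The Wnt list had 6 of 43 genes called higher in IGROV1 and 15 lower, beside 10.2% and 8.63% of all genes. The secreted inhibitor gene SFRP2 read 3.66, 3.71 and 3.73 in the IGROV1 arrays and 10.45, 10.50 and 10.53 in the SKOV3-labelled arrays, a difference of 6.79 ± 0.11. AXIN2, a feedback target of beta-catenin, and LEF1, its partner on DNA, were higher in the SKOV3-labelled arrays by 4.35 ± 0.14 and 4.81 ± 0.09, or 1.35 for AXIN2 and 1.80 for LEF1 with probe sets averaged. The frizzled receptor genes FZD2 and FZD7 and the orphan receptors ROR1 and ROR2 were higher there by 3.51, 2.47, 2.71 and 3.66. WNT7A and WNT10A were higher in IGROV1 by 4.07 ± 0.14 and 3.09 ± 0.11 (averaged probe sets gave 1.64 for WNT10A), and the frizzled gene FZD6 by 2.64 ± 0.09. Other targets of the pathway did not pass: LGR5, NKD1 and NOTUM differed by 0.07, 0.13 and 0.21.

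Genes of DNA replication and mitosis were close. Of 24 proliferation genes 1 was called higher in IGROV1 (MKI67, 1.26) and 1 lower (MCM3, 1.02, or 0.99 and not called without SKOV3 replicate 3), beside 10.2% and 8.63% of all genes, with a median of -0.03. TOP2A and CDK1 differed by 0.13 and 0.05. The cyclin gene CCND2, outside that list, read 2.90, 3.18 and 3.27 in the IGROV1 arrays and 11.96, 11.92 and 11.92 in the SKOV3-labelled arrays, a difference of 8.81 ± 0.09. Of 7 measured mismatch repair genes, MSH6 was the 1 called, at 6.79, 6.70 and 6.78 in the IGROV1 arrays and 11.08, 11.05 and 11.14 in the SKOV3-labelled arrays and a difference of 4.34 ± 0.05. Its 4 probe sets ranged from 5.13 in that direction to 0.40 in the other, and averaged 2.25.

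Markers of cells that should be absent from a pure line were checked. The counts that follow stand beside 10.2% of all genes called higher in IGROV1 and 8.63% lower. Of 13 leukocyte markers 0 were called, and PTPRC read 2.95 and 2.84. Endothelial VWF read 4.41 and 4.40 and did not differ past the threshold. Among 14 endothelial markers 2 were called higher in IGROV1 and 4 lower, led by KDR at 4.61 ± 0.10 and TIE1 at 3.40 ± 0.12 higher in the SKOV3-labelled arrays. PECAM1 was called higher in IGROV1 by 1.36, but the mean of its 5 probe sets was lower there by 2.12 (limma, adjusted p = 1.7e-11). Of 16 stromal and smooth muscle markers 1 was called higher in IGROV1 and 6 lower. THY1 and TAGLN were higher in the SKOV3-labelled arrays by 5.54 ± 0.09 and 5.39 ± 0.12, while LUM, DCN, FAP and PDGFRA had line means between 2.01 and 5.05. Of 22 neural markers 2 were called higher in IGROV1 (NCAM1 by 5.25 and L1CAM by 4.07) and 5 lower. PTPRZ1, a receptor phosphatase of neural progenitors, and OTX2, a forebrain homeodomain gene, were higher in the SKOV3-labelled arrays by 7.98 ± 0.10 and 6.42 ± 0.07, and GFAP, STMN2 and DCX differed by 0.08, 0.05 and 0.32. Averaged over probe sets, the differences were 1.74 for TIE1, 2.14 for NCAM1 and 2.29 for L1CAM. The part of other cell types in these differences was not tested.

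Called genes were also placed along the genome. Over 19683 genes with a place in the gene order, 16 runs of at least 4 consecutive measured genes were all called in 1 direction, 9 higher in IGROV1 and 7 higher in the SKOV3-labelled arrays, as a description with no test. The longest run, of 11 transcripts on chromosome 17, held HOXB2 to HOXB9 with noncoding transcripts between them. A run of 5 on chromosome 12 (UBE2N, MRPL42, SOCS2-AS1, SOCS2 and CRADD) was higher in the SKOV3-labelled arrays, and one of 5 on chromosome 9 (NMRK1, OSTF1, PCSK5, RFK and GCNT1) was higher in IGROV1. A run of 4 on the X chromosome held the glypicans GPC4 and GPC3, higher in the SKOV3-labelled arrays by 3.31 ± 0.05 and 4.0 ± 0.16, and averaged probe sets gave 2.08 for GPC3.

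By chromosome, the X and chromosome 12 had the highest shares of genes called higher in the SKOV3-labelled arrays, given without a test. Of 696 genes tested on the X, 119 were called higher there (17.1%) and 44 in IGROV1 (6.32%). On chromosome 12, 165 of 1035 were called higher there (15.9%) and 62 in IGROV1 (5.99%), with a median IGROV1 minus SKOV3 difference of -0.143. Chromosomes 16, 20 and 22 leaned the other way, with 96 against 30 genes, 75 against 26 and 64 against 25. DNA copy number was not measured.

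**Figure D5:**
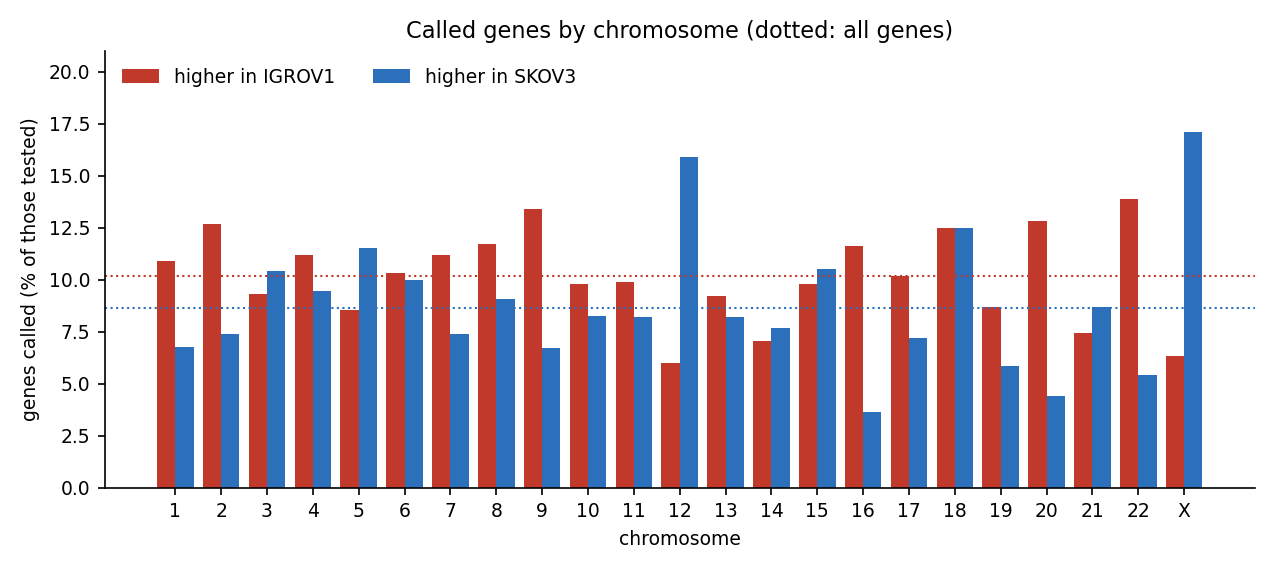
Bars give, for each chromosome, the percent of tested genes called higher in IGROV1 (red) and in the SKOV3-labelled arrays (blue), and dotted lines give the same over all genes, 10.2% and 8.63%. Blue bars are highest on the X (17.1%) and chromosome 12 (15.9%) and lowest on chromosome 16 (3.64%).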

How the data were processed

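Values for 54675 probe sets on 12 arrays were deposited by the authors in log2 units. The submitters' processing notes name RMA and the affy package, with no version. RMA quantile-normalizes the arrays, so an overall difference in RNA content cannot be seen. No detection calls were used, so a difference against a line near the floor depends on that floor. Arrays were grouped by title. After 62 control probe sets were left out, 41091 probe sets with 1 gene in the platform annotation measured 19775 genes, each by its brightest probe set (highest mean of 12 arrays), which for 1140 genes was of the cross-hybridising _x_at kind. Another 1801 probe sets had several genes and 11777 were unnamed here. Of the symbols, 19735 matched RefSeq (GRCh38.p14), which gave gene order. No 2 arrays were identical.

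The fit used limma 3.58.1 (R 4.3.3) on all 12 arrays, with a mean for each line and 8 residual degrees of freedom, eBayes moderation, and Benjamini-Hochberg adjustment over all genes. On simulated data, 50 of 50 genes were recovered at each log2 change of 1.5, 2, 3 and 4, with 0 false calls. All 4 sizes lie well above the minimum of 1 beside a median SE of 0.094, so this recovery was nearly fixed in advance. The share of false calls among the genes called on the arrays was not tested. The 32 gene lists and the genes in them (748 of 823 genes measured) were chosen with earlier results of these data known. Named were MAL2, FABP5, SLC2A3, LIN28A, the 15 largest differences in each direction (highest line mean at least 4.44, no _x_at), up to 5 called members per list and direction, marker lists and runs of neighbours; 41 further called list members were named for their role after their values were seen. The alternatives were probe sets averaged, _x_at left out, dim genes left out, median centring, quantile normalization, a trended and robust prior, only the 6 arrays, the replicate number as a block, limma's treat, and leaving out each array.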

Additional observations from a re-analysis of the deposited data

How the results depend on the processing

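The count of called genes was 3714 and ranged from 2761 (treat with a minimum of 1) to 3751 over all alternatives run. With probe sets averaged, 1662 genes were higher in IGROV1 and 1410 lower. With the replicate number as a block (replicate block) 3714 genes were called, and no named call was lost. Every line has each replicate number, so the block leaves each difference unchanged and this count was nearly fixed in advance. Same-numbered arrays' deviations correlated at -0.013, 0.05 and 0.128, so the numbers were not taken to pair the arrays. Of 389 named called genes 320 stayed called in the same direction under all alternatives run. Averaging probe sets ended 41 of these calls and the treat minimum 42. Calls ended by treat included SLC2A1, PRSS8, DSC2, MIEN1, IGF2BP3, DSP, JUP, ZEB1, GCLM, HMOX1, MCM3 and MKI67. This loss is not repeated where those genes are described. The direction turned for PECAM1 with probe sets averaged (-2.12) and, without _x_at probe sets, for AKR1C1 (-0.054) and DPPA4 (-1.49); each rests on probe sets of 1 gene that disagree. Of 64 list counts, 6 moved by over 1.5 times with probe sets averaged, among them EGF family genes higher in the SKOV3-labelled arrays (5 to 3) and amino acid genes higher in IGROV1 (5 to 3). Of 2337 called genes with several probe sets, all probe sets went 1 way in 1781, all were called in 711, and another probe set was called in the opposite direction in 20. Precision is limited by 3 arrays per line and, for low genes, by the floor of the scale.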

Other observations

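Genes chosen after their values were seen are given here as values. Several were ion, water and solute carriers, picked singly and not as a list. The phosphate transporter gene SLC34A2 read 11.06, 10.74 and 10.93 in the IGROV1 arrays and 3.71, 3.56 and 3.92 in the SKOV3-labelled arrays. The cystine transporter subunit SLC3A1 read 10.09, 10.03 and 10.14 in the IGROV1 arrays and 3.26, 3.13 and 3.19 in the SKOV3-labelled arrays. Neither gene overlapped between the lines, with differences of 7.18 ± 0.13 and 6.90 ± 0.07 (limma, adjusted p = 4e-13 and 5.4e-15). Carbonic anhydrase CA2, the water channel AQP1 and the potassium channel KCNJ16 were higher in IGROV1 by 8.93 ± 0.06, 5.84 ± 0.08 and 5.38 ± 0.13. The sodium pump subunit ATP1B1, high in both lines, was higher in IGROV1 by 2.79 ± 0.13 and the kidney injury marker HAVCR1 by 5.19 ± 0.11. FXYD2, a pump modulator, differed by 6.86 on a probe set that can cross-hybridise and by 2.33 without it, and with probe sets averaged SLC3A1 and KCNJ16 differed by 2.57 and 3.37. The cadherin genes of kidney were opposed: CDH16 was higher in IGROV1 by 1.35, and CDH6 was higher in the SKOV3-labelled arrays by 6.00 ± 0.16.

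Some gene families were also counted after their values were seen. Of 468 measured ZNF zinc finger genes 79 were called higher in the SKOV3-labelled arrays (16.9%) and 24 in IGROV1 (5.13%), beside 8.63% and 10.2% of all genes. Among 19 SOX factors 7 were called higher in the SKOV3-labelled arrays and 1 in IGROV1; SOX9 differed by 4.77 ± 0.08. Of 7 insulin-like growth factor binding protein genes all were called, IGFBP3 and IGFBP1 higher in IGROV1 by 5.16 and 1.28 and the other 5 higher in the SKOV3-labelled arrays, among them IGFBP2 by 3.44 ± 0.07. IGFBP1 fell to 0.59 and was not called with probe sets averaged. The lysophosphatidic acid receptor genes LPAR4 and LPAR6 were higher in the SKOV3-labelled arrays by 4.07 ± 0.13 and 4.2 ± 0.10, and LPAR6 differed by 2.19 with probe sets averaged. Of 7 SOCS genes, which encode feedback inhibitors of cytokine receptors, 4 were called higher there, with SOCS2 at 3.47 ± 0.07. Of 5 GSTM transferases 4 were called higher in IGROV1, but several share sequence and were read by probe sets that can cross-hybridise. Of 13 PARP genes 6 were called higher in IGROV1 and 1 lower, led by PARP9 at 3.69 ± 0.11, or 2.04 with its probe sets averaged.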
